A study of Homo sapiens with 46 samples.

Results

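The samples described here are 10 of the 46 samples of the series, all from a breast carcinoma xenograft, human tumour tissue grown in mice. They were chosen by the group in their labels: 5 tumours received ASO-1570, an antisense oligonucleotide directed at the splicing factor gene TRA2B, and 5 received the control oligonucleotide ASO-CTL. Both oligonucleotides were injected into the tumour at 50 mg/kg, 3 times a week over 4 weeks, after which RNA was taken for stranded mRNA sequencing. All 10 tumours carry the name of 1 xenograft model, so they describe 1 tumour line, and the labels call the host mice immunocompetent without naming a strain, sex or age. The labels do not say whether the 5 tumours of a group grew in separate mice, so p-values measure the spread between these samples. For comparison, 12 cultures of MDA-MB-231, a human breast cancer cell line, had been transfected with ASO-1570 or ASO-CTL at 200 nM or 50 nM, 3 cultures a group.

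TRA2B and its paralog TRA2A are SR-like proteins that bind purine-rich GAA repeats in exons and promote the use of those exons. Both genes, like many genes of the SR protein family, contain an ultraconserved exon with an early stop codon. When such a poison exon is kept, the transcript is degraded by nonsense-mediated decay or makes no full-length protein, and TRA2B protein itself favours its own poison exon. An oligonucleotide that pushes the poison exon into the mRNA is therefore a way to lower TRA2B protein. The mitochondrial genome is a separate transcriptome of 13 protein genes, 2 ribosomal RNAs and a set of transfer RNAs transcribed inside the organelle. It supplies core subunits of the respiratory chain, whose other subunits are encoded in the nucleus.

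The poison exons of TRA2B and of the SR protein gene SRSF4 are shown from their first base to the stop codon, because the splicing measurements below turn on them; both stretches are reference sequence (GRCh38, GENCODE 29, minus strand), with the stop codon in capitals. The first runs over chr3:185931772-185931852 and the second over chr1:29166009-29166064.
TRA2B poison exon: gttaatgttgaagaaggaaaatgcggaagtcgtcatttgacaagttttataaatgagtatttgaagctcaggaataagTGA
SRSF4 poison exon: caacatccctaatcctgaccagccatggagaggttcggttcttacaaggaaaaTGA
The whole TRA2B poison exon is 276 bases long and lies in the gene at chr3:185915906-185938136. The letters GAA occurred 28 times on its sense strand, overlaps counted, and 0 times on the other strand (read as TTC). That is 10.14 GAA per 100 bases, against a median of 1.792 over 29185 annotated exons of 250 to 300 bases, of which 0.024% held as many or more. A GAA of any number was common, in 96.9% of those exons, and a match of letters is not a binding site.

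Total counts were 75338390 to 109589380 per tumour (75.3 to 109.6 M) in the deposited count table. The replicate numbers of the count table and of the splicing table do not name the same libraries. Events without a PSI value should sit in genes with few counts, and by this measure only 1 of 10 xenograft libraries paired best with its own number, whereas 6 of 6 did in each of the MDA-MB-231 tables; every best match of the xenograft stayed within its own treatment group. Values of the 2 tables are therefore set side by side by group and never by tumour, and a tumour number below belongs to its own table.

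The tumours had the transcriptome of a keratin-rich epithelium. Levels between genes are given per length, as counts per base of exon scaled to a fixed total over nuclear genes (TPM), as medians over the 10 tumours. The simple-epithelium keratins KRT7, KRT18 and KRT19 stood at 1537, 1350 and 1072 TPM, and the surface protein EPCAM at 1170 TPM. Some genes of basal breast epithelium were also high, below those 4: the transcription factor FOXC1 stood at 737 TPM, KRT17 at 583, KRT6B at 536, SOX10 at 324 and KRT14 at 276 TPM. Others were low, with KRT5 at 4.91 TPM, the basal factor TP63 at 0.0742 TPM, and the contractile genes of myoepithelium ACTA2, CNN1 and MYLK at 0.25, 0.225 and 2.12 TPM. Sums over marker lists are given in CPM, counts scaled to a fixed total of nuclear counts but not to gene length. The 18 basal and myoepithelial markers summed to 3412 to 4543 CPM in ASO-1570 tumours and 3111 to 4986 CPM in ASO-CTL tumours. The 20 luminal markers summed to 5041 to 9461 CPM in ASO-1570 tumours and 5892 to 10136 CPM in ASO-CTL tumours. Because the lists differ in their number of genes and in gene length, these sums do not rank them.

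The estrogen and progesterone receptor genes of luminal tumours were at a median of 0, while other luminal factors ran from low to high. The estrogen receptor gene ESR1 and the progesterone receptor gene PGR had a median of 0 TPM, the luminal factor GATA3 2.07 TPM and the estrogen target TFF1 0.814 TPM. FOXA1, a partner of the estrogen receptor on chromatin, stood at 41.5 TPM and XBP1, a factor of the unfolded protein response that is high in luminal cells, at 444 TPM. The receptor gene ERBB2 stood at 73.8 TPM and its partner ERBB3 at 337 TPM. Among the 15 nuclear genes with the highest medians were the actin-binding gene TMSB10 (8202 TPM), the cytoskeletal gene ACTB (4681 TPM), the secreted peptide gene FDCSP (4608 TPM), the glycolytic gene GAPDH (4231 TPM) and S100A6 (4198 TPM). The others were the nuclear long RNA MALAT1 (8832 TPM), the small neuronal RNA gene BCYRN1 (7567 TPM), 5 genes listed by identifier only (ENSG00000280800, ENSG00000280614, ENSG00000281181, ENSG00000281383 and ENSG00000269968), and 3 copies of mitochondrial DNA in the nuclear genome, MTATP6P1 (28090 TPM), MTND2P28 (13592 TPM) and MTCO1P12 (10269 TPM). Such copies are nearly identical to the mitochondrial genes, so reads of the organelle can be counted on them. TRA2A stood at 119 TPM and TRA2B at 49.4 TPM.

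Markers of other human cell types were close to absent. The 14 lymphocyte markers summed to 5.33 to 9.91 CPM in ASO-1570 tumours and 4.89 to 10.2 CPM in ASO-CTL tumours, with 7 of the 14 at 0 in every tumour. The T cell genes CD3E and TRAC were among those at 0. The 12 endothelial markers summed to 4.30 to 6.81 CPM in ASO-1570 tumours and 4.05 to 6.79 CPM in ASO-CTL tumours. The 16 myeloid markers summed to 13.4 to 42.7 CPM in ASO-1570 tumours and 29.5 to 66.5 CPM in ASO-CTL tumours; 4 of them, including C1QA and TYROBP, were at 0 throughout, and S100A9 (59.8 TPM) and CD14 (26.8 TPM), which epithelial cells can also express, were the highest. The 13 fibroblast markers summed to 68.9 to 137 CPM in ASO-1570 tumours and 50.1 to 137 CPM in ASO-CTL tumours, led by FBLN1 (34.5 TPM), while COL1A2 had 0.114 TPM and LUM a median of 0. The 10 skeletal muscle markers summed to 22.4 to 28.6 CPM in ASO-1570 tumours and 23.9 to 32.1 CPM in ASO-CTL tumours. No marker list differed between the groups (exact two-sided permutation tests of the log2 sums, adjusted p of 0.884 or more over 12 lists). Those 12 also held the lists of interferon response, replication-dependent histone and nuclear-retained RNA genes, which are not cell type markers. Counts were made on the human genome, so RNA of the mouse host is seen only where it aligned there, and whether mouse reads were removed first is not given in the sources used here.

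The mitochondrial share of all counts was high and very uneven. It was 22.8, 38.06, 64.2, 75.3 and 64.3% in ASO-1570 tumours 1 to 5, against 17.7, 38.03, 29.8, 26.8 and 53.9% in ASO-CTL tumours 1 to 5. Tumours 3, 4 and 5 of the ASO-1570 group lay above every ASO-CTL tumour, but the other two lay within the control range, so the groups overlapped. The mean was 52.9% ± 21.7 in ASO-1570 tumours and 33.2% ± 13.7 in ASO-CTL tumours (SD, n = 5 each), a difference of 19.7 percentage points that did not pass an exact two-sided permutation test (p = 0.111; the smallest p that 5 against 5 allows is 0.00794). Without ASO-1570 tumour 1 the difference was 27.2 points and the exact permutation p was 0.0397, so the call depends on that tumour. In bulk RNA a larger organelle share cannot be told apart from less nuclear RNA or from another mix of cells: nuclear counts averaged 42.7 ± 23.2 M in ASO-1570 tumours and 60.9 ± 18 M in ASO-CTL tumours (SD, n = 5 each; exact permutation p = 0.238).

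**Figure D1:**
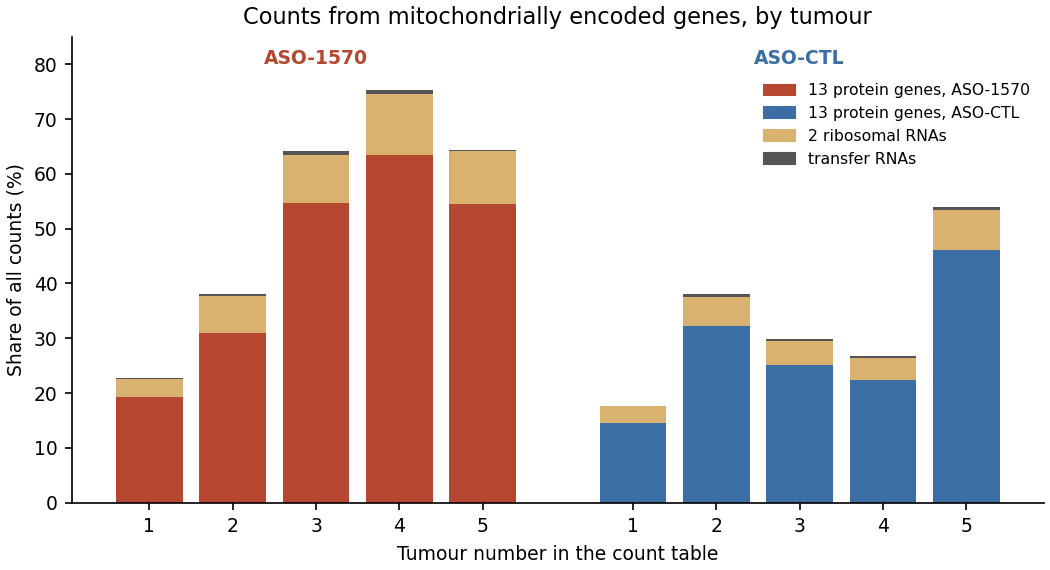
Percent of all counts on the 13 mitochondrial protein genes, the 2 ribosomal RNAs and the transfer RNAs, as stacked bars for each tumour, ASO-1570 tumours left of ASO-CTL tumours. The whole bar runs between 22.8 and 75.3% in ASO-1570 tumours and between 17.7 and 53.9% in ASO-CTL tumours, and the protein genes make up most of each bar.

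The 13 mitochondrial protein genes moved broadly together between tumours. MT-ND4, a subunit of respiratory complex I, took 3.44, 4.99, 10.5, 11.4 and 9.09% of all counts in ASO-1570 tumours 1 to 5, against 2.64, 5.50, 4.74, 4.11 and 8.21% in ASO-CTL tumours. MT-CO1, the catalytic subunit of cytochrome c oxidase, took 3.22, 5.62, 8.81, 11.1 and 9.23% in ASO-1570 tumours, against 2.47, 5.45, 4.24, 3.99 and 7.81% in ASO-CTL tumours. Tumours 3, 4 and 5 of the ASO-1570 group and tumour 5 of the ASO-CTL group were high for both genes, and the groups overlapped. Within the mitochondrial counts some proportions were steadier than others. MT-CO1 held 13.7 to 14.9% of them and MT-ND4 13.1 to 16.3% in all 10 tumours. MT-ND1 ran from 6.88 to 10.8%, MT-ATP8 from 1.21 to 1.96% and MT-ND3 from 1.07 to 1.58%.

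All 13 protein genes had a positive log2 change, from 1.25 for MT-ATP8 to 1.70 for MT-ND3 with a median of 1.56, against a median of 0.01 over all 23812 genes tested. None passed edgeR's quasi-likelihood test after adjustment (adjusted p = 0.487 for each), and 9 of the 13 were higher at an unadjusted p below 0.05, as were 5.52% of all genes tested. That count was 13 without ASO-1570 tumour 1 or 2 or ASO-CTL tumour 5, 3 without ASO-CTL tumour 2, and 0 or 1 without any of the other 6 tumours. The small ribosomal RNA MT-RNR1 stood slightly apart: it took 0.394, 1.38, 1.28, 1.47 and 1.48% of counts in ASO-1570 tumours, against 0.535, 0.631, 0.498, 0.589 and 0.685% in ASO-CTL tumours. Every ASO-1570 tumour but tumour 1 lay above every ASO-CTL tumour. Its log2 change was 1.93 (SE 0.57, adjusted p = 0.487 in edgeR's quasi-likelihood test). Mitochondrial transfer RNAs followed no treatment: they were 71.7 to 130 per 10000 mitochondrial counts in 8 tumours but 16.9 in ASO-1570 tumour 5 and 14.8 in ASO-CTL tumour 1.

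The spread between tumours was organised along this share. In a principal component analysis of 23775 nuclear genes, with the mitochondrial genes left out, the first component held 61.2% of the variance and the next held 7.72%. Scores on the first component were -102, -32.0, 127, 133 and 96.2 in ASO-1570 tumours 1 to 5, against -135, -19.0, -52.7, -78.5 and 63.4 in ASO-CTL tumours, and did not differ by treatment (exact two-sided permutation p = 0.159). The order of the scores was almost the order of the mitochondrial share. Pearson's r was 0.99 and Spearman's rho 0.976 over the 10 tumours (permutation p = 1e-05, the smallest that 100000 permutations can give, and 5e-05; adjusted over 14 relations 4.67e-05 and 0.000233). Without the tumours farthest from the median share, ASO-1570 tumours 4 and 5, r was 0.997, and within the 6 tumours with a share under 40% it was 0.984 (exact permutation p = 0.00278); the 4 tumours above that are too few for a value of their own.

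**Figure D2:**
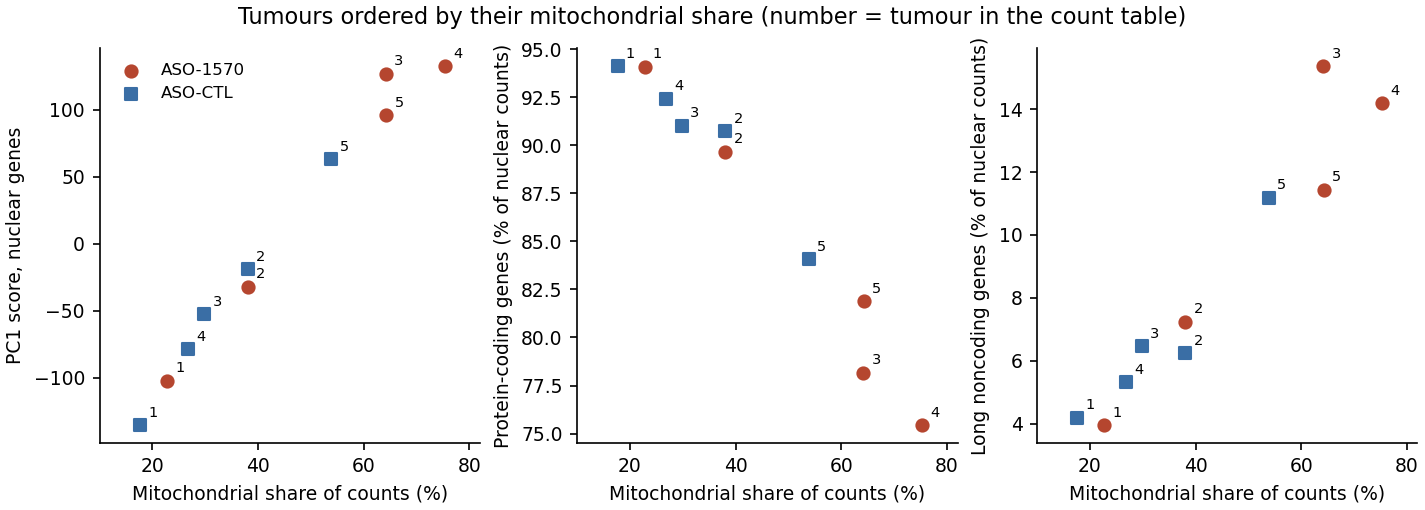
First principal component of nuclear genes, protein-coding percent of nuclear counts and long noncoding percent of nuclear counts on the vertical axes, each against the mitochondrial share of counts in percent, with 1 point per tumour and ASO-1570 named before ASO-CTL in the legend. Tumours of both treatments fall along the same line in each panel, with r of 0.99, -0.981 and 0.959.

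The make-up of the nuclear RNA changed with the same ordering. Protein-coding genes held 94.1, 89.7, 78.2, 75.5 and 81.9% of nuclear counts in ASO-1570 tumours 1 to 5, against 94.1, 90.7, 91.0, 92.4 and 84.1% in ASO-CTL tumours, which is high where the mitochondrial share was low. Their relation with the share had r = -0.981 and rho = -0.988 over 10 tumours (permutation p = 1e-05 and 3e-05, adjusted 4.67e-05 and 0.000233), r = -0.974 without the 2 farthest tumours and -0.942 within the 6 under 40% (exact permutation p = 0.00694). Long noncoding genes went the other way, with r = 0.959 and rho = 0.939 (permutation p = 0.00011 and 0.0002, adjusted 0.000385 and 0.0007), 0.968 without the 2 farthest and 0.896 within the 6 (exact permutation p = 0.0264). Nuclear counts here include the nuclear copies of mitochondrial DNA, on which reads of the organelle can be counted. Those copies held 0.732 to 8.01% of nuclear counts in ASO-1570 tumours and 0.496 to 2.90% in ASO-CTL tumours. The protein-coding percent is therefore not independent of the share. MALAT1, given below, is among the long noncoding genes. Neither relation was tested without the copies or without MALAT1. Sequencing depth did not follow the share detectably (r = -0.329, rho = -0.382, permutation p = 0.346 and 0.280). The number of nuclear genes with at least 10 counts did over all 10 tumours (r = -0.860, permutation p = 0.00189; rho = -0.612, permutation p = 0.0683) but had r = 0.507 within the 6 tumours under 40% (exact permutation p = 0.306).

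MALAT1, a long RNA that stays in the nucleus, varied widely. It had 9022, 11677, 105762, 77377 and 56364 CPM in ASO-1570 tumours 1 to 5, against 5669, 22685, 17986, 9674 and 62808 CPM in ASO-CTL tumours. The same 4 tumours that were high for MT-ND4 were high for MALAT1, and the groups overlapped. Of 5 nuclear-retained RNAs tested, 4 rose with the share, against 25% of all nuclear genes and 37.6% of long noncoding genes. A list of 5 genes is too short to read a share from. MALAT1 rose by 0.78 on the log2 scale per 10 percentage points of share (SE 0.10) and the imprinting regulator KCNQ1OT1 by 0.67. The paraspeckle scaffold NEAT1 rose by 0.40 and NKTR, whose transcripts often retain introns, by 0.39.

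Across the transcriptome, 12439 of 23775 nuclear genes moved with the share at an adjusted p below 0.05, in an edgeR quasi-likelihood fit with treatment as a covariate. Of these 5945 were higher (25% of genes tested) and 6494 lower (27.3%), and 2801 moved at least 2-fold over 20 percentage points. Library-size scaling hardly moved this split: higher genes were 47.8% of the calls with TMM, 48.7% with DESeq2 size factors and 45.5% with nuclear counts alone. The share is itself measured on these libraries, so this describes how the tumours vary and names no cause.

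Direction followed the class of gene. Among 14814 protein-coding genes 16.4% were higher and 37.7% lower. Among 5550 long noncoding genes 37.6% were higher and 9.51% lower, among 2469 pseudogenes 38.7% and 12.7%, and among 371 small noncoding genes 61.5% and 5.66%. Of 42 nuclear copies of mitochondrial genes 31 were higher and 0 lower, and reads of these copies and of the genes that make up the share cannot be told apart where their sequences are identical. Length bore on it less than class: in 4 equal groups of protein-coding genes from the shortest exon length to the longest, 40.4, 42, 38.9 and 29.7% were lower.

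Among the 10 lower genes with the smallest p, LAPTM4A, a lysosomal membrane protein, had 236, 78.3, 19.1, 11 and 20.4 CPM in ASO-1570 tumours 1 to 5, against 274, 108, 153, 158 and 39.0 CPM in ASO-CTL tumours. It was lowest in the 4 tumours with the highest mitochondrial share, whichever oligonucleotide they had received. It fell by 0.81 on the log2 scale per 10 points of share (SE 0.04, adjusted p = 1.02e-06 in edgeR's quasi-likelihood test). TMEM109, CD9, TMED10, SARAF, PERP, SELENOF, CD24, SERP1 and GORASP2 fell by 0.54 to 0.76; CD9 is a tetraspanin, TMED10 a cargo receptor of early secretory vesicles, GORASP2 a Golgi stacking protein and SERP1 a partner of the endoplasmic reticulum translocon.

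The 10 higher genes with the smallest p were pseudogenes and noncoding genes. They comprised the mitochondrial copies MTND4P12 and MTND6P4 (0.70 each), the processed pseudogenes RPS15AP30 (1.02), RPS12P7 (1.19) and GAPDHP66, the divergent transcript GATD1-DT (0.58), the antisense gene NFATC2IP-AS1 (0.84), and ENSG00000285128, ENSG00000258504 and ENSG00000265334 (0.83, 0.99 and 1.29, log2 per 10 points). RPS15AP30 had 1.01, 2.32, 20.5, 25.5 and 24.0 CPM in ASO-1570 tumours, against 0.543, 3.17, 1.40, 1.09 and 7.5 CPM in ASO-CTL tumours. RPS12P7 and ENSG00000265334, with the steepest slopes of the 10, had low medians of 0.539 and 0.523 CPM over all tumours. Whether counting used the strand is not given in the sources used here, so antisense genes cannot be told apart from their partners, and pseudogenes share reads with their parents.

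Pathway lists consist mostly of protein-coding genes, so their counts are set against the 16.4% higher and 37.7% lower among those genes, whose median slope was -0.08; the plot of list slopes gives them member by member. Nuclear-encoded oxidative phosphorylation genes ran opposite to the mitochondrial genome: 30 of 38 fell with the share and 1 rose, with a median of -0.32 per 10 points against -0.01 over all nuclear genes (79% of the list lower, against 37.7%). The Rieske subunit gene UQCRFS1 had 60.4, 23.6, 8.61, 8.22 and 10.4 CPM in ASO-1570 tumours, against 68.9, 32.4, 30.0, 49.1 and 9.05 CPM in ASO-CTL tumours, a slope of -0.61 (SE 0.06). ATP5PB and ATP5F1A, subunits of ATP synthase, had slopes of -0.51 and -0.52, and NDUFS8 was the 1 that rose (0.12).

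In 5 lists of protein synthesis, protein folding and sterol synthesis 61 to 77.8% of the members fell, against 37.7% of protein-coding genes. Endoplasmic reticulum chaperones had 14 of 18 lower and 0 higher (median -0.34), among them the master chaperone HSPA5 (-0.47) and EDEM1 (-0.51). Mitochondrial ribosomal proteins had 20 of 26 lower and 1 higher, MRPS5 (0.36); cytosolic ribosomal proteins had 25 of 41 lower and 0 higher (median -0.20), with RPL3 at -0.39. Sterol synthesis had 14 of 20 lower and 0 higher, including MSMO1 (-0.53), and heat shock proteins 11 of 15 lower and 1 higher, HSP90AA1 (0.31). Shares in this range were not confined to these 5 lists: apoptosis genes had 13 of 19 lower (68.4%) and 2 higher (median -0.27).

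Cell cycle, glycolysis and epithelial lists stood nearer to those background shares, from 41.2% lower for basal markers and 42.1% for p53 targets to 56.2% for luminal markers; a share near the background is no result about a list. Mitosis genes had 14 of 30 lower, including the cyclin CCNB1 (-0.50) and the kinase PLK1 (-0.47), and 3 higher, TOP2A (0.34), CENPE (0.28) and CENPF (0.14). S phase genes had 15 of 30 lower and 3 higher, the hypoxia and glycolysis list 13 of 27 lower and 1 higher, with LDHA at -0.46, and p53 targets 8 of 19 lower and 2 higher. Of the luminal epithelial markers 9 of 16 fell and 1 rose, and of the basal markers 7 of 17 fell and 1 rose, CDH1 (-0.54) and KRT6B (-0.53) among those lower. The counts for these lists moved by at most 2 genes under either other scaling, and the median of each list named here kept its sign.

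The SR protein and splicing regulator lists had shares close to those of protein-coding genes (33.3 and 32% lower, 16.7 and 24% higher), so the members are given as values of single genes. Of 12 SR proteins tested SRSF11 (0.59) and SRSF4 (0.22) rose with the share, while SRSF9 (-0.42), SRSF3 (-0.41), SRSF2 (-0.25) and SRSF1 (-0.16) fell. SRSF11 had 377, 561, 2522, 2126 and 2586 CPM in ASO-1570 tumours, against 289, 698, 533, 478 and 1325 CPM in ASO-CTL tumours, high again in the same 4 tumours. Of 14 nonsense-mediated decay factors 8 fell (57.1%) and 4 rose (28.6%), against 37.7 and 16.4% of protein-coding genes, a difference that was not tested. Those that rose were UPF3B (0.64), UPF2 (0.53), UPF3A (0.44) and SMG6 (0.19). Of 25 hnRNP and other splicing regulators 8 fell, such as HNRNPK (-0.41) and the epithelial regulator ESRP1 (-0.35), and 6 rose, such as SON (0.30). TRA2B (-0.06, adjusted p = 0.322 in edgeR's quasi-likelihood test) and TRA2A (0.12, adjusted p = 0.0638) did not pass.

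**Figure D3:**
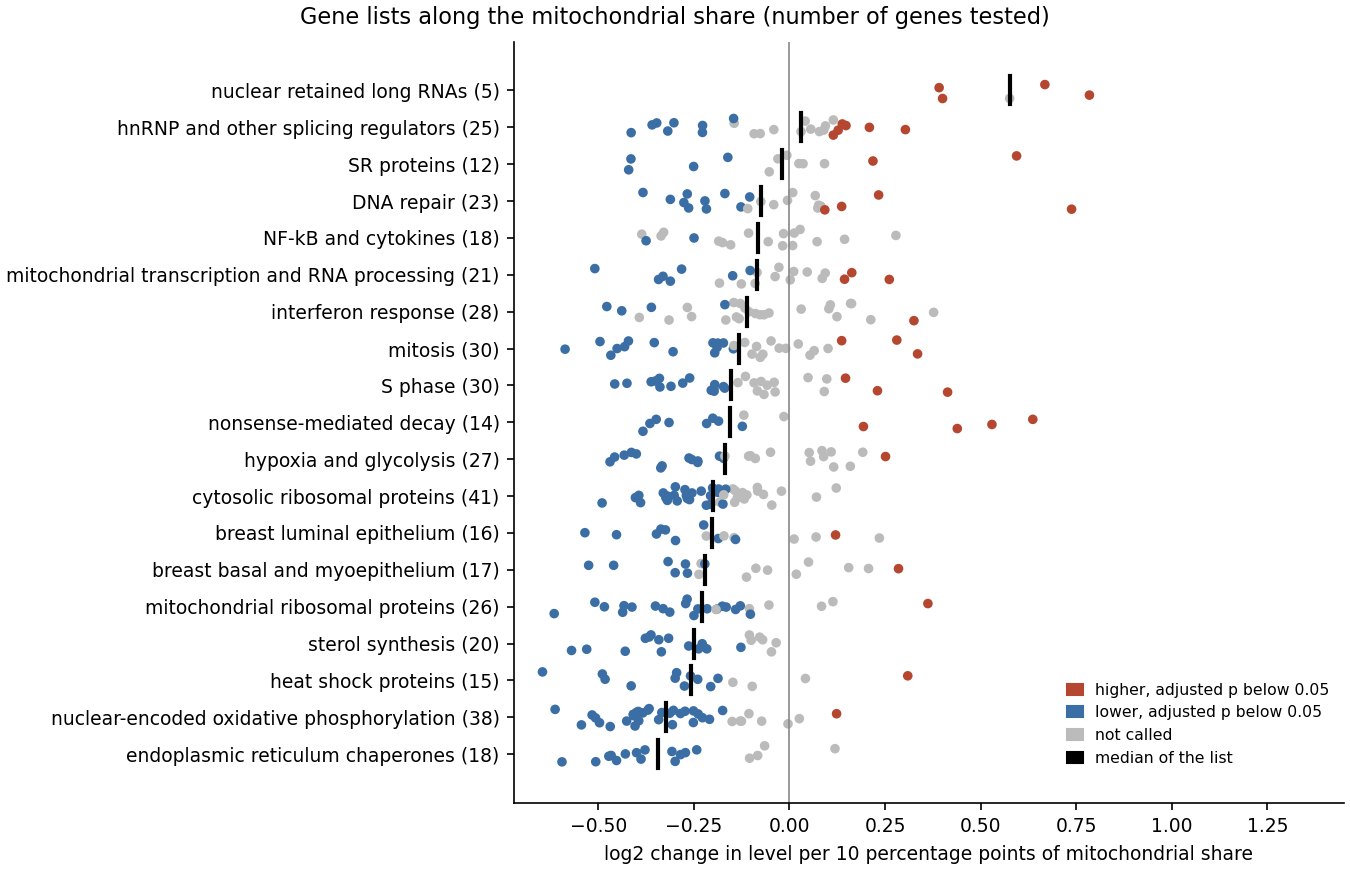
Slope of each gene on the mitochondrial share, as log2 change per 10 percentage points on the horizontal axis, for 19 lists down the page; dots are genes and the marker is the median of the list. Oxidative phosphorylation and endoplasmic reticulum chaperones lie furthest left, with medians of -0.32 and -0.34, and nuclear-retained RNAs furthest right.

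The tumours varied several times more than cells in culture. The median SD of log2 CPM was 0.614 among 5 ASO-1570 tumours and 0.489 among 5 ASO-CTL tumours. In MDA-MB-231 it was 0.239 and 0.110 among 3 ASO-1570 and 3 ASO-CTL cultures at 200 nM, and 0.128 and 0.0934 at 50 nM. Over the 17193 genes tested in all 3 tables the control medians were 0.429 in the xenograft, 0.0870 at 200 nM and 0.0801 at 50 nM, and the xenograft SD was the larger for 93.0% and 93.7% of genes. The biological coefficient of variation was 0.486 in the xenograft, 0.186 at 200 nM and 0.138 at 50 nM; with the share in the model it was 0.304 in the xenograft. The mitochondrial share of those cultures was 1.78 to 2.34% and 2.13 to 3.16%.

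Some of the largest swings were between genes that overlap. Among genes averaging 4 or more in log2 CPM, the read-through locus NME1-NME2 had the largest SD over the 10 tumours. It had 100.4, 102, 14.2, 0 and 0 CPM in ASO-1570 tumours, against 192, 34.8, 126, 211 and 40.7 CPM in ASO-CTL tumours. A gene model of MATR3, a nuclear matrix protein gene counted under a pair of identifiers, had 176, 83.3, 5.56, 2.68 and 1.07 CPM in ASO-1570 tumours, against 233, 71.1, 18.4, 107 and 1.18 CPM in ASO-CTL tumours. Counts of such loci can be divided differently between overlapping gene models in each library, so these values are uncertain. The small Cajal body RNA gene SCARNA7, which lies within KPNA4, had 38.8 to 1289 CPM in ASO-1570 tumours and 28.9 to 693 CPM in ASO-CTL tumours.

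The targeted gene was not detectably lower after ASO-1570. TRA2B had 216, 145, 177, 198 and 151 CPM in ASO-1570 tumours 1 to 5, against 229, 150, 205, 245 and 164 CPM in ASO-CTL tumours. The groups overlapped almost completely. The log2 change was -0.16 (SE 0.20, 95% interval -0.60 to 0.28, adjusted p = 0.707 in edgeR's quasi-likelihood test). TRA2A had 105, 127, 137, 153 and 129 CPM in ASO-1570 tumours, against 84.9, 119, 165, 136 and 172 CPM in ASO-CTL tumours. Its log2 change was -0.05 (SE 0.22, 95% interval -0.52 to 0.42, adjusted p = 0.921 in edgeR's quasi-likelihood test). The sign of the TRA2A change turned when ASO-1570 tumour 1, ASO-CTL tumour 3 or ASO-CTL tumour 5 was left out (0.02 to 0.04).

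**Figure D4:**
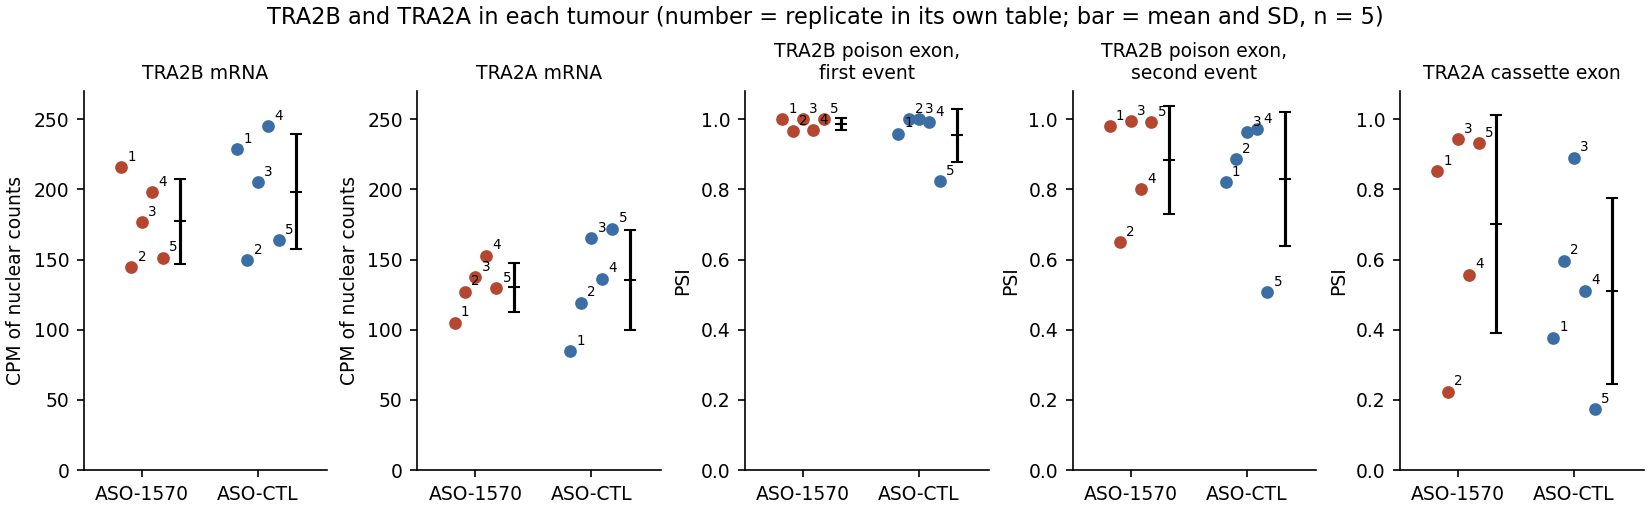
TRA2B and TRA2A levels in CPM and the PSI, from 0 to 1, of both TRA2B poison exon events and of the TRA2A cassette exon, with 1 point per tumour, the mean and the SD, ASO-1570 left of ASO-CTL. In every panel the points of the 2 groups cover overlapping ranges.

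Over all genes, none of 23812 passed an adjusted p of 0.05 for ASO-1570 against ASO-CTL (0%), and the smallest adjusted p was 0.487. At an unadjusted p below 0.05 edgeR's quasi-likelihood test had 1315 genes higher (5.52%) and 738 lower (3.1%), and DESeq2's Wald test also called 0, with 3194 genes at an unadjusted p below 0.05. With the mitochondrial share in the model 0 of 23775 nuclear genes passed, and 474 (1.99%) were higher and 547 (2.3%) lower at an unadjusted p below 0.05. The count depends on how libraries are weighted. When limma's voom weighted each library by its quality it called 6643 genes, with weights of 0.235 for ASO-1570 tumour 1 and 2.54 for ASO-1570 tumour 5, and ASO-1570 tumour 1, whose mitochondrial share was the lowest of its group, counted least. TRA2B was not among them (log2 change -0.23, adjusted p = 0.319 in limma). In a joint fit with the MDA-MB-231 cultures 1 gene, ADGRF5, passed for the xenograft, with at most 0.0199 CPM in any ASO-1570 tumour and at most 0.0802 CPM in any ASO-CTL tumour. That fit took a shared dispersion per gene from tumours and cultures, whose spread differed, so this call is uncertain.

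The genes with the smallest p are given as values, since none passed. YIPF2, a Golgi membrane protein gene, had 75.1, 89.8, 147, 189 and 136 CPM in ASO-1570 tumours, against 59.5, 67.9, 50.5, 55.9 and 66.0 CPM in ASO-CTL tumours. CSAG2, a cancer-testis gene, had 29.8, 36.3, 64.9, 60.6 and 56.1 CPM in ASO-1570 tumours, against 17, 28.8, 20.2, 21.9 and 24.7 CPM in ASO-CTL tumours; its near-identical copy CSAG3 shares reads with it. SMIM22, which encodes a small membrane protein, had 147, 174, 144, 164 and 127 CPM in ASO-1570 tumours, against 117, 83.7, 99.6, 82.8 and 98.3 CPM in ASO-CTL tumours.

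In these 3 genes, and in HSD17B1, an enzyme that activates estrogen, all ASO-1570 tumours lay above all ASO-CTL tumours, as they did in 59 of 23775 nuclear genes (0.248%); genes picked for a small p tend to separate in this way, so nothing is read from it. The log2 changes were 1.10 (SE 0.25) for YIPF2, 1.15 (SE 0.25) for CSAG2, 0.66 (SE 0.17) for SMIM22 and 0.65 (SE 0.18) for HSD17B1, each with an adjusted p of 0.487 in edgeR's quasi-likelihood test. YIPF2 and CSAG2 also rose with the mitochondrial share (0.20 and 0.21 log2 per 10 points), while SMIM22 had a slope of -0.02 and a log2 change of 0.70 with the share in the model. The other 8 of the 12 with the smallest p among higher genes, ENSG00000288473, CEMP1, LMTK3, ENSG00000256443, ENSG00000260007, CSAG3, PCSK1N and GLIPR1, overlapped between groups, with log2 changes of 0.94 to 2.44. GLIPR1, whose product was named for its expression in glioma, had 36.1, 42.3, 278, 279 and 127 CPM in ASO-1570 tumours, against 14.5, 38.4, 17.6, 37.7 and 56.9 CPM in ASO-CTL tumours.

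On the lower side RARRES1, a retinoid-responsive gene, had 13.4, 9.86, 8.53, 6.22 and 5.09 CPM in ASO-1570 tumours, against 13.9, 29.4, 16.1, 27.5 and 16.6 CPM in ASO-CTL tumours. The zinc finger gene ZNF85 had 13.4, 9.01, 5.93, 4.95 and 7.54 CPM in ASO-1570 tumours, against 17.3, 15.4, 17.8, 16.3 and 17.6 CPM in ASO-CTL tumours. Neither gene overlapped between the groups, nor did MIR1244-2 and ENSG00000279364, where 86 of 23775 nuclear genes (0.362%) lay lower without overlap. The log2 changes were -1.25 (SE 0.32) for RARRES1 and -1.04 (SE 0.27) for ZNF85, with an adjusted p of 0.487 each in edgeR's quasi-likelihood test. METTL5, which methylates 18S ribosomal RNA, RND3, HAUS6, ZNF107, RASGEF1B, ESM1, MTX2 and ENSG00000285608 overlapped, with log2 changes of -0.66 to -1.99.

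None of the pathway lists held a called gene for treatment. Of the 18 NF-kB and cytokine genes tested 8 were lower at an unadjusted p below 0.05, against 3.1% of all genes, and the median log2 change was -1.25. This rested on 1 control tumour. The chemokine gene CCL20 had 1.93, 2.15, 3.53, 0.545 and 0.761 CPM in ASO-1570 tumours 1 to 5, against 2.80, 1.72, 3.86, 110 and 4.32 CPM in ASO-CTL tumours. The NF-kB inhibitor gene TNFAIP3 had 15.8, 18.5, 27.2, 12.8 and 17.4 CPM in ASO-1570 tumours, against 15.1, 17.4, 30.2, 379 and 31.1 CPM in ASO-CTL tumours. CXCL8, the neutrophil chemokine, had 6.14, 3.75, 10.3, 1.36 and 8.72 CPM in ASO-1570 tumours, against 7.15, 7.57, 15.4, 113 and 9.23 CPM in ASO-CTL tumours.

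In each of these 3 genes ASO-CTL tumour 4 stood far above the other 9 tumours. Without it 0 of 18 were lower at an unadjusted p below 0.05 and the median log2 change was -0.36. TNF (35.3 CPM), CXCL1 (108 CPM) and CXCL2 (24.6 CPM) were likewise highest in that tumour, whose mitochondrial share was 26.8%. The same tumour had the highest sum of the 16 myeloid markers, 66.5 CPM, against 13.4 to 42.7 CPM in ASO-1570 tumours and 29.5 to 48.5 CPM in the other ASO-CTL tumours, and 4 of the 16, including C1QA and TYROBP, were at 0 in it as in the rest. The part of myeloid cells in these values was not tested.

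Of 27 hypoxia and glycolysis genes 7 were lower at an unadjusted p below 0.05 (25.9%, against 3.1% of all genes) and the median log2 change was -0.50. ERO1A, the endoplasmic reticulum oxidase, had 64.2, 40.6, 38.4, 25 and 40.5 CPM in ASO-1570 tumours, against 77.1, 60.6, 85.9, 81.9 and 56.8 CPM in ASO-CTL tumours. The glucose transporter gene SLC2A1 had 86.6, 45, 33, 26.7 and 53.8 CPM in ASO-1570 tumours, against 89.2, 95.1, 91.4, 108 and 43.0 CPM in ASO-CTL tumours. ASO-1570 tumour 1 lay within the control range for both genes, and tumours 2 and 5 did so for SLC2A1. Both fell with the mitochondrial share (-0.18 and -0.26 log2 per 10 points), and the number of the 27 that were lower was 2 without ASO-CTL tumour 3 or 4, 4 without ASO-1570 tumour 2 or 4, 11 without ASO-CTL tumour 5 and 12 without ASO-1570 tumour 1.

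Splicing was read from PSI, the fraction of transcripts of an event that include its exon or intron. Of 138022 events, 113102 had a value in all 10 libraries and 66854 of these ranged by at least 0.05. None passed an adjusted p of 0.05 with a difference of at least 0.10 in limma (0%; smallest adjusted p 0.763), and 2768 (4.14%) had an unadjusted p below 0.05, 1832 higher and 936 lower. When events with missing values were admitted (at least 3 values a group) 5 passed, in AC091167.2, FAM151B, KDM4B, FAM27C and PDE1B, and without ASO-1570 replicate 1 of this table PDE1B passed alone.

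The TRA2B poison exon had a PSI near 1 in both groups when joined to the following coding exon, and lower, more uneven values in a second event. In the first event the PSI was 1, 0.966, 1, 0.969 and 1 in ASO-1570 libraries 1 to 5, against 0.959, 1, 1, 0.991 and 0.823 in ASO-CTL libraries. The groups overlapped, and ASO-CTL library 5 was the lowest. A PSI cannot exceed 1, and every other ASO-CTL library stood at 0.959 or more. This event therefore had little room to rise, so its test cannot decide whether ASO-1570 raised inclusion. The difference of 0.0324 (95% interval -0.0381 to 0.103) did not pass (adjusted p = 0.763 in limma; exact two-sided permutation p = 0.484). With the number of events without a PSI value in the model, a fit added after the data were seen, it was 0.00242 (adjusted p = 0.999 in limma). The second event, with the same exon joined further downstream, had 0.980, 0.649, 0.994, 0.801 and 0.992 in ASO-1570 libraries, against 0.822, 0.886, 0.964, 0.973 and 0.508 in ASO-CTL libraries. The groups overlapped there too, and it did not reach an unadjusted p below 0.05 in limma.

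In MDA-MB-231 the first of these events had a far lower PSI. At 200 nM it was 0.402, 0.556 and 0.301 in ASO-1570 cultures, against 0.160, 0.159 and 0.161 in ASO-CTL cultures. At 50 nM it was 0.578, 0.490 and 0.377 in ASO-1570 cultures, against 0.305, 0.254 and 0.250 in ASO-CTL cultures. Every xenograft library of either group lay above every one of these cultures. A cassette exon of TRA2A also stood higher in most xenograft libraries: 0.853, 0.224, 0.943, 0.557 and 0.933 in ASO-1570 and 0.378, 0.597, 0.891, 0.512 and 0.174 in ASO-CTL libraries, against 0.055 to 0.208 in all 12 cultures. These are separate experiments, so model and experiment cannot be told apart, and no depth stands behind a PSI value. Over all events shared by the tables the control means ran alike, with r = 0.947 over 78360 events at 200 nM and 0.949 over 70261 at 50 nM, a correlation across events, which are not independent.

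The events with the smallest p for treatment are values only. In CCT6B, a chaperonin subunit gene, a cassette exon had 1, 0.979, 1, 1 and 1 in ASO-1570 libraries, against 0.797, 0.836, 0.767, 0.891 and 0.850 in ASO-CTL libraries. In the homeobox gene HESX1 an exon had 0.433, 0.425, 0.239, 0.385 and 0.135 in ASO-1570 libraries, against 0.039, 0, 0, 0.086 and 0.052 in ASO-CTL libraries. In the chromatin gene ADNP an exon had 0.096, 0.470, 0, 0.530 and 0.176 in ASO-1570 libraries, against 0.947, 0.769, 1, 0.793 and 0.597 in ASO-CTL libraries. The differences were 0.168, 0.288 and -0.567, with an adjusted p of 0.763 each in limma. In all 3 the groups did not overlap, which follows from picking the smallest p; of all events tested 261 (0.39%) lay higher and 146 (0.218%) lower without overlap.

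Among splicing factors the lowest p was for an exon of MBNL2, an RNA-binding regulator of exon choice, with 0, 0.155, 0, 0.063 and 0 in ASO-1570 libraries, against 0.197, 0.162, 0.187, 0.190 and 0.161 in ASO-CTL libraries. The difference was -0.136 (adjusted p = 0.763 in limma). Of 144 events tested in 12 genes listed as TRA2 targets from general knowledge 7 had an unadjusted p below 0.05, against 4.14% of all events, and none passed. HNRNPA2B1, one of them, had 0.319, 0.795, 0.337, 0.594 and 0.299 for a pair of mutually exclusive exons in ASO-1570 libraries, against 0.749, 0.766, 0.615, 0.618 and 0.839 in ASO-CTL libraries, and the groups overlapped. Of 25 events in TRA2B and TRA2A 0 reached an unadjusted p below 0.05.

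As with gene levels, the spread of splicing followed a property of the libraries. The number of events without a PSI value, a sign of thin coverage, was 11026, 1440, 15061, 4541 and 14928 in ASO-1570 libraries 1 to 5, against 3104, 2785, 7670, 3675 and 1385 in ASO-CTL libraries. The relation of this number to the mitochondrial share was not tested, since the tables are not joined by tumour. Libraries 1, 3 and 5 of the ASO-1570 group had the most, while its library 2 had about as few as the lowest control, and the groups did not differ by an exact two-sided permutation test (p = 0.0952). The percent of events with a PSI of 1 followed it closely, with r = 0.99 and rho = 0.964 against log2 missing events (permutation p = 1e-05 and 5e-05; adjusted 4.67e-05 and 0.000233; r = 0.982 without ASO-1570 libraries 3 and 5). The mean PSI of retained introns rose with it (r = 0.812, rho = 0.697; permutation p = 0.00386 and 0.0305; adjusted 0.006 and 0.0475; r = 0.880 without the same libraries) and that of mutually exclusive exons fell (r = -0.800, rho = -0.842; permutation p = 0.00472 and 0.00379; adjusted 0.00661 and 0.00758; r = -0.877).

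In a limma fit of PSI on log2 missing events and treatment, a fit added after the data were seen, 2687 events in 1819 genes passed an adjusted p of 0.05 (4.02%), 1436 higher (2.15%) and 1251 lower (1.87%). By type 296 of 4011 retained introns were higher and 23 lower, 593 of 38324 cassette exons were higher and 82 lower, and 309 of 16283 mutually exclusive pairs were higher and 1121 lower. The count rests on a few libraries: it was 0 without ASO-1570 library 2 or without ASO-CTL library 3, 341 without ASO-CTL library 5 and 1247 to 2299 without any other, including 1755, 1247, 1745, 1395 and 1697 without ASO-1570 libraries 3 and 5 and ASO-CTL libraries 1, 2 and 4. How far thin coverage itself sets these PSI values was not tested.

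The share of events that passed varied between lists of splicing genes. Of the 25 events in TRA2B and TRA2A 8 passed (32%), of 46 in SR protein genes 8 (17.4%), of 144 in the listed TRA2 targets 18 (12.5%) and of 238 in hnRNP and other splicing regulator genes 16 (6.72%), against 4.02% of all events. Events of a gene share exons and reads, and these shares were not tested. The TRA2A cassette exon, with the values given above, rose by 0.231 in PSI per doubling of missing events (SE 0.028, adjusted p = 0.0150 in limma), and the second TRA2B poison exon event by 0.127 (adjusted p = 0.0306). The SRSF4 poison exon shown above had 0.676, 0.293, 0.686, 0.636 and 0.805 in ASO-1570 libraries, against 0.546, 0.593, 0.940, 0.655 and 0.259 in ASO-CTL libraries. It rose by 0.164 per doubling (SE 0.032, adjusted p = 0.0272 in limma).

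An SRSF11 exon had 0.788, 0.231, 0.743, 0.566 and 0.785 in ASO-1570 libraries, against 0.417, 0.481, 0.648, 0.343 and 0.191 in ASO-CTL libraries, and rose by 0.163 per doubling; an SRSF7 exon rose by 0.154. In all of these ASO-1570 library 2 and ASO-CTL library 5, the 2 with the fewest missing events, were the lowest. The SRSF4, SRSF7 and SRSF11 exons were picked for a small p of this slope, so nothing is read from that order in them. Retained introns rose in PNPT1, a mitochondrial RNA-degrading enzyme gene (0.227), and NOL11, a ribosome biogenesis gene (0.217). Mutually exclusive exon events fell in HNRNPM (-0.144), HNRNPA2B1 (-0.135), NASP (-0.118) and SRSF5 (-0.121).

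**Figure D5:**
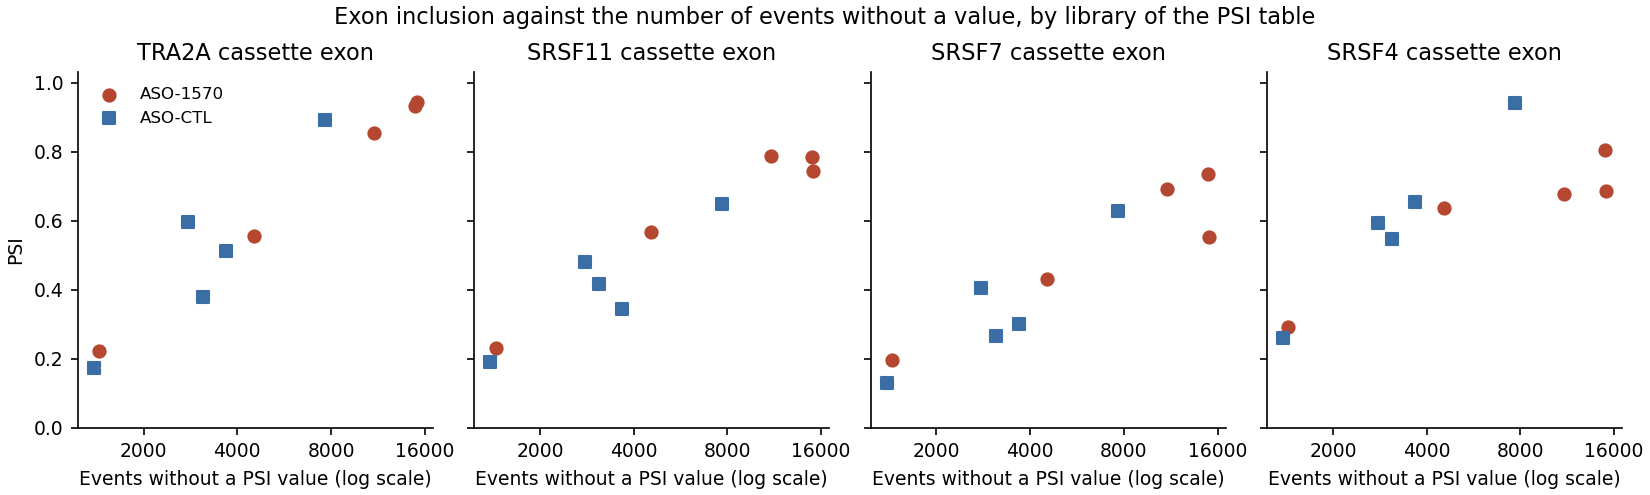
PSI, from 0 to 1, of the cassette exons of TRA2A, SRSF11, SRSF7 and SRSF4 against the number of events without a PSI value in the library, on a log axis, with 1 point per library and ASO-1570 named before ASO-CTL in the legend. ASO-1570 library 2 and ASO-CTL library 5, at 1440 and 1385 missing events, lie lowest in each panel. The SRSF11, SRSF7 and SRSF4 exons were picked for a small p of this relation.

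The xenograft was last set against MDA-MB-231 cells given the same oligonucleotides, in 1 edgeR fit over all 22 libraries with 27959 genes. The fit took a shared dispersion per gene from tumours and cultures, although the tumours varied more. Errors for the xenograft can thus be too small (TRA2B SE 0.147, against 0.202 in the fit of the xenograft alone). Those for the cells can be too large, so the p-values of this fit are approximate. In the cells TRA2B changed by -0.85 at 200 nM (adjusted p = 0.0225 by edgeR's quasi-likelihood test) and by -0.78 at 50 nM (adjusted p = 0.0929), both below the lower bound of -0.60 of the xenograft's own interval. The difference of the changes, xenograft minus cells, was 0.69 for 200 nM (95% interval 0.19 to 1.19, unadjusted p = 0.00904, adjusted p = 0.204 by edgeR's quasi-likelihood test). For 50 nM it was 0.62 (95% interval 0.12 to 1.12, unadjusted p = 0.0180, adjusted p = 0.398 by the same test), so neither passed over all genes. TRA2A, with changes of 0.67 and 0.63 in the cells, differed by -0.72 (95% interval -1.25 to -0.19, unadjusted p = 0.0108, adjusted p = 0.215 in edgeR) and -0.68 (95% interval -1.22 to -0.15, unadjusted p = 0.0147, adjusted p = 0.375 in edgeR).

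The change itself differed for 120 genes between xenograft and 200 nM (0.429% of those tested) and for 17 at 50 nM (0.0608%). These calls rest on the same shared dispersion. The 5 with the smallest p at 200 nM, the protease gene TLL2, the epidermal crosslinking enzyme gene TGM1, the epithelial transcription factor gene ELF3, FBXL2 and KIAA1614, changed by 5.08, 3.10, 1.57, 1.23 and 3.33 on the log2 scale in the cells, where all 5 passed. In the xenograft their log2 differences in the same fit were 0.94, 0.25, -0.03, -0.09 and -0.35, and none passed. ELF3 stood at 35.7 to 62.8 TPM in the tumours.

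Of the genes called in the cells at both doses and tested in the xenograft, the 33 higher ones had median changes of 1.85 and 2.02 in the cells and of 0.05 in the xenograft, and the 24 lower ones -1.18 and -1.08 in the cells and -0.04 in the xenograft, where the median of all genes was 0.00 and none of the 57 passed. Of 386 splicing events called at 200 nM and tested in the xenograft 0 passed there, with 9 at an unadjusted p below 0.05 in the same direction and 8 in the opposite one. Of 29 called at 50 nM 0 passed, with 0 in the same and 3 in the opposite direction. Dose, route, time and model all differ between these experiments and cannot be told apart.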

How the data were processed

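RNA from 10 xenograft tumours was sequenced. The authors deposited gene counts (raw, not normalized) and rMATS PSI values, which are a fraction from 0 to 1. FastQC, MultiQC, Trimmomatic, STAR and StringTie on GRCh38/hg38 are named, without versions, in the submitters' processing notes; the removal of mouse reads and the strand used in counting are not given in the sources used here. Another cell line filled 24 columns that were left out, and 48 columns elsewhere were not used here.

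Counts were tested with edgeR 4.0.16 (quasi-likelihood, TMM scaling, filterByExpr, R 4.3.3) and with DESeq2 1.42.0 and limma 3.58.1 as alternatives; PSI values valued in all 10 libraries with a range of at least 0.05 were tested with limma. P-values were adjusted by Benjamini-Hochberg over all features tested, with calls at 0.05. Exact permutation tests and correlations (100000 permutations) used Python 3.11.15 and scipy 1.17.1. CPM are TMM-scaled counts set to a fixed total of nuclear counts. Slopes are log2 changes per 10 percentage points of mitochondrial share, with treatment in the model. Scripts were tested on simulated data.

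The named genes are the 12 higher and 12 lower with the smallest p for treatment, among genes averaging 2 or more in log2 CPM. Added to these are the 10 each way for the share, taken at any level. TRA2B, TRA2A, the 13 mitochondrial protein genes, the 15 highest and the 15 most variable nuclear genes, and up to 4 members of a list complete them. The most variable genes were taken among those averaging 4 or more in log2 CPM. Other list members were chosen after their values were seen. Some genes that this rule names are not reported here. The members and lists were chosen with earlier results of these data known. Genes were named and placed by GENCODE 29, which covered 58561 of 60668 identifiers. Depth limits the precision, and intervals for tests cover the spread between samples.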

Additional observations from a re-analysis of the deposited data

Results flagged for a closer look

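In 5 of 92 groups of 5 tumours 1 value stood apart from the other 4 by Dixon's test (critical value 0.71), where chance flags about 1 in 20 groups. They were 32.1 CPM of ENSG00000288473 in an ASO-CTL tumour, 11.1 CPM of PCSK1N, 50.5 CPM of METTL5 and 78.4 CPM of HAUS6 in ASO-1570 tumours, and a PSI of 0.823 of the TRA2B poison exon in ASO-CTL library 5.

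The change after ASO-1570 differed between the xenograft and MDA-MB-231 cells for 6 genes among those with the smallest p, by the test of the difference itself in edgeR's quasi-likelihood fit. That fit took a shared dispersion per gene from tumours and cultures of unequal spread, so its p-values are approximate. Xenograft minus cells at 200 nM was -3.68 on the log2 scale for KIAA1614, -4.14 for TLL2, -2.86 for TGM1, -1.59 for ELF3 and -1.32 for FBXL2. At 50 nM it was -3.50 for TLL2, -2.43 for TGM1, -1.43 for ELF3 and -1.10 for FBXL2. For ENSG00000267748 it was -10.6 at 50 nM, but its control cells were all at 0, so this fitted value is no bound. KIAA1614, TLL2 and TGM1 averaged only 0.111, 0.291 and 0.425 CPM in 200 nM ASO-CTL cultures, so their changes in the cells start near the floor. Dose, route, time and model differ between the experiments and cannot be told apart.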

How the results depend on the processing

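For treatment 0 genes passed in every setting run except limma's voom with library quality weights (6643), and 216 to 10560 genes had an unadjusted p below 0.05, with 722 without ASO-1570 tumour 4 and 7145 without ASO-1570 tumour 1. Of 664 alternatives for named gene changes 4 changed sign, all among the 6 tumours with a share under 40%: -0.027 for ENSG00000260007, -0.19 for MT-ND4L, -0.023 for MT-ND6 and -0.079 for MT-ATP8; the cause was not tested. Leaving out 1 tumour gave -0.24 to -0.08 for TRA2B and -0.18 to 0.043 for TRA2A (0.016 without ASO-1570 tumour 1, 0.040 without ASO-CTL tumour 3, 0.043 without ASO-CTL tumour 5). The share difference was 14.1 to 27.2 points, with 27.2 without ASO-1570 tumour 1 (exact permutation p = 0.0397). Genes moving with the share were 8670 to 12316, and all 278 alternatives for named slopes kept their direction and call. The first principal component held 70.1% of variance when genes averaged 2 or more in log2 CPM.

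For splicing 5 events passed with at least 3 values a group, and 0 to 1 when 1 library was left out. Events moving with missing events were 4793 among those never at 0 or 1, and 0 to 2299 without 1 library. The TRA2B poison exon gave 0.029 to 0.044 with 1 library left out and no value without ASO-CTL library 5, where its range fell under the filter; it gave 0.00242 with missing events in the model (adjusted p = 0.999 in limma) and 0.0559 with the mitochondrial share (adjusted p = 0.908), joined by replicate numbers that do not name the same libraries. Against MDA-MB-231 at 50 nM voom with weights by group called 38 genes.

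Equal replicate numbers did not pair the tumours: their deviations correlated at 0.777, -0.207, -0.0979, -0.197 and 0.424 in the count table. With the replicate block 0 genes and 0 events passed, TRA2B changed by -0.15 (adjusted p = 0.591 in edgeR), TRA2A by -0.01 and the poison exon by 0.0324, and the share gave p = 0.0625 by exact sign flips, the smallest that 5 pairs allow. Coverage behind PSI values is unknown, which limits what splicing differences can show.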
